A study of Mus musculus with 11 samples.

Results

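Cholinergic neurons of the mouse stellate ganglion were compared by whether somatostatin (Sst) RNA was detected in them. The neurons were the cells of cluster 4 in the authors' clustering, after 2 cells with more than 5 counts of the injury gene Atf3 per 10000 were left out. The members were thus chosen by their Sst and Atf3 values and by the authors' cluster. This gave 52 cells of the 878 in the series: 18 with an Sst value above 0, called Sst-positive, and 34 with an Sst value of 0, called Sst-negative. Set 1 held 3 positive and 9 negative cells, Set 2 held 10 and 12, and Set 3 held 5 and 13. The stellate ganglion is the sympathetic ganglion that supplies the heart and forelimb, among other organs. All cells came from male C57BL/6J mice aged 6 to 8 weeks that carried 2 retrograde tracers for 3 days before dissection: CTB-488, injected in a forelimb, and CTB-555, injected in interscapular brown fat (iBAT). Each of the 3 sets pooled the ganglia of 2 mice, and cells were sorted into 11 plates. The set is therefore the replicate (n = 3), and positive and negative cells of a set come from the same pooled mice. No group lacked the tracers, and the labels tie no cell to a tracer.

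Most sympathetic neurons release noradrenaline, which is made from tyrosine by tyrosine hydroxylase (Th) and dopamine beta-hydroxylase (Dbh). A minority are cholinergic: they make acetylcholine with choline acetyltransferase (Chat), load it into vesicles with Slc18a3, take choline back up through Slc5a7 and often carry the vasodilator peptide Vip. Such neurons are known to supply sweat glands and some blood vessels. Somatostatin is a peptide hormone and transmitter that acts through G-protein-coupled receptors, which lower cAMP and open potassium channels, and its gene is a classical target of cAMP signalling through the factor CREB.

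The split rests on Sst, and RNA of the somatostatin receptor Sstr2 was detected in 17 of 18 positive and 3 of 34 negative cells, so the 250 bases before the RefSeq start of each gene are shown (GRCm38.p6). Capitals mark the palindrome TGACGTCA, the full cAMP response element, which reads alike on both strands.
Sst, chr16:23890845-23891094, minus strand: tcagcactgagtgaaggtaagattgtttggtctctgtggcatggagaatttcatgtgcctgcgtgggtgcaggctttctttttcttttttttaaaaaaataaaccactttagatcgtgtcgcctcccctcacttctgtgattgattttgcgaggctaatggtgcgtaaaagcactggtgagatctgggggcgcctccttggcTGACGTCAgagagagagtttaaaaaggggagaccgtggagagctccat
Sstr2, chr11:113619077-113619326, plus strand: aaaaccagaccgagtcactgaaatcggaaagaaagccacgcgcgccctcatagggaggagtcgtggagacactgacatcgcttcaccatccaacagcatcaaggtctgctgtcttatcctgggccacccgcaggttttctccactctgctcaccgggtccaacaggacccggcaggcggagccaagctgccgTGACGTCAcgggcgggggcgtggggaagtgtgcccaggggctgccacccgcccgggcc
The element ended 40 bases before the start of Sst and 50 bases before that of Sstr2. It was found in the same window of 478 of 27025 RefSeq genes (1.77%). Among genes with such a window, it was in 259 of 7466 tested (3.47%), 7 of 164 higher in positive cells (4.27%) and 7 of 165 lower (4.24%). The test below covered 10415 genes, with 222 higher and 237 lower, so many had no window and were left out of these shares. The windows of Crip1 and Gda, the genes described next, did not hold these 8 letters. A match is a description of the sequence only. The genes themselves lie at chr16:23889573-23890958 (Sst) and chr11:113619342-113626028 (Sstr2) in GENCODE M21. The GENCODE interval of Sst begins upstream of the RefSeq start, so it covers part of the window shown, with the element.

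Positive cells held between 1 and 244 Sst counts, with a median of 17.5. Levels are given as counts per 10000 counts of a cell, and group levels as the mean over the cells of a set. Sst ranged from 0.323 to 61.7 with a median of 4.75, and averaged 20.6 in Set 1, 12.3 in Set 2 and 9.63 in Set 3. Since Sst chose the cells, these values are a description. Just inside the threshold lay cells at 0.323 (1 count), 0.855 (7 counts), 1.11 (4 counts), 1.51 (4 counts) and 1.76 (3 counts). Just outside it, every negative cell was at 0, where 3 counts would have given 0.438 to 2.77 with a median of 0.821, so a low Sst level could go undetected.

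The positive share was 34.6% of the 52 cells (95% Clopper-Pearson interval 22.0% to 49.1%). It was 25.0% in Set 1, 45.5% in Set 2 and 27.8% in Set 3. Sst counts also appeared in 14.9% of the 388 cells of cluster 1 (median 28396 counts per cell), 2.39% of the 335 cells of cluster 2 (median 40121) and 2.97% of the 101 cells of cluster 3. Clusters 1 and 2 hold the cells with high Th, Dbh and Slc6a2. The highest value outside cluster 4 was 1.64, and the 52 cells held 88.2% of all Sst counts. Of the 18 positive cells, 14 lay above 1.64 and 4 at or below it. The intervals and limits cover counting error only, and cDNA was pooled within a plate. Each of the 96 well barcodes was found on at least 2 plates, as well positions are reused.

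The table held 30518080 counts, and a plate held 2050165 to 3373157. The median depth of positive cells was 19195 counts in Set 1, 37859.5 in Set 2 and 31001 in Set 3. Negative cells had medians of 38726, 45170 and 32250, higher in each set. After each cell was thinned to 15000 counts, 237 genes passed the test below in place of 459. The plot of Sst against depth shows positive cells across the range of depths.

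**Figure D1:**
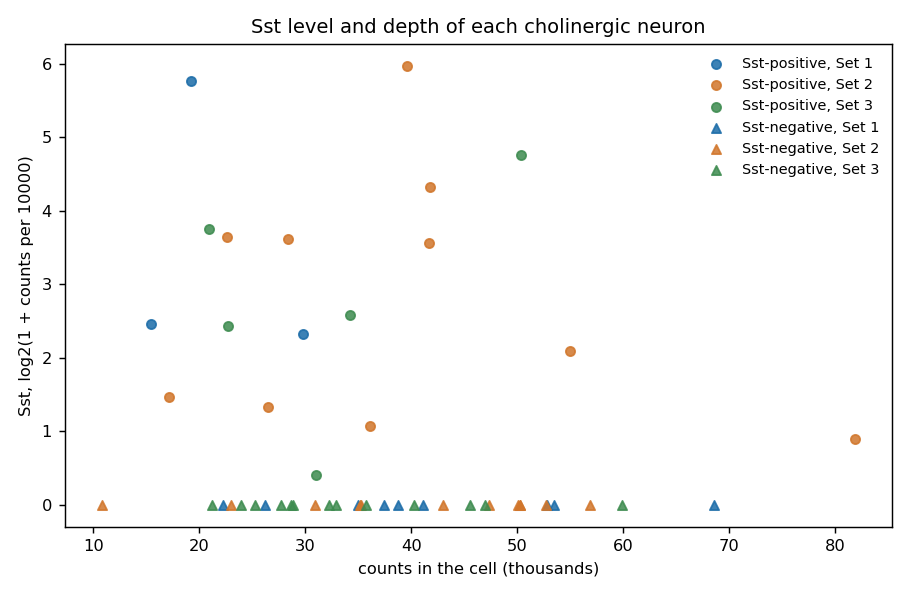
Sst level as log2(1 + counts per 10000) against the counts in each of the 52 cells, coloured by set, with circles for positive and triangles for negative cells. Positive cells were found from 15470 to 81888 counts and negative cells from 10842 to 68566.

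Beyond Sst, 459 of 10415 tested genes (4.41%) differed between positive and negative cells: 222 (2.13%) were higher and 237 (2.28%) lower in positive cells. Counts of list members below are to be read beside these shares. The test was limma on the mean log2(1 + counts per 10000) of the 3 sets with the set as a block, with a Benjamini-Hochberg adjusted p under 0.05. Of the 459 genes, 447 moved the same way in 3 of 3 sets. The test picked genes whose mean difference over these same sets was large for their level, so this agreement is largely built in. Its share over all tested genes was not counted. The median log2 difference over all tested genes was -0.00. Differences below are on this log2 scale, positive minus negative, and shrink changes at low levels. The test took the spread of a gene almost wholly from genes of like level, so its standard errors (SE) can be smaller than the scatter of a gene's own 3 differences, and its p-values are far smaller than 3 sets could give gene by gene. With the spread of each gene alone no gene passed (853 had an unadjusted p under 0.05). Under 16 other settings that kept the shared spread, 107 genes passed every time, 56 higher and 51 lower. The setting with the stricter filter tested only 3370 genes, those with a mean of at least 0.5 counts per 10000. Genes below that level could not be among the 107, whatever their differences. Th, Crip1 and Slc5a7 were not among the 107. For each named gene outside the 107, the sets whose omission ended its call, or otherwise the settings that did, are given with it. Tlx3 is given only by the counts of its lists. For Hoxc6, Hoxc8 and Hoxc9, also outside the 107, the effect of settings is given only by the counts of the Hox list.

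**Figure D2:**
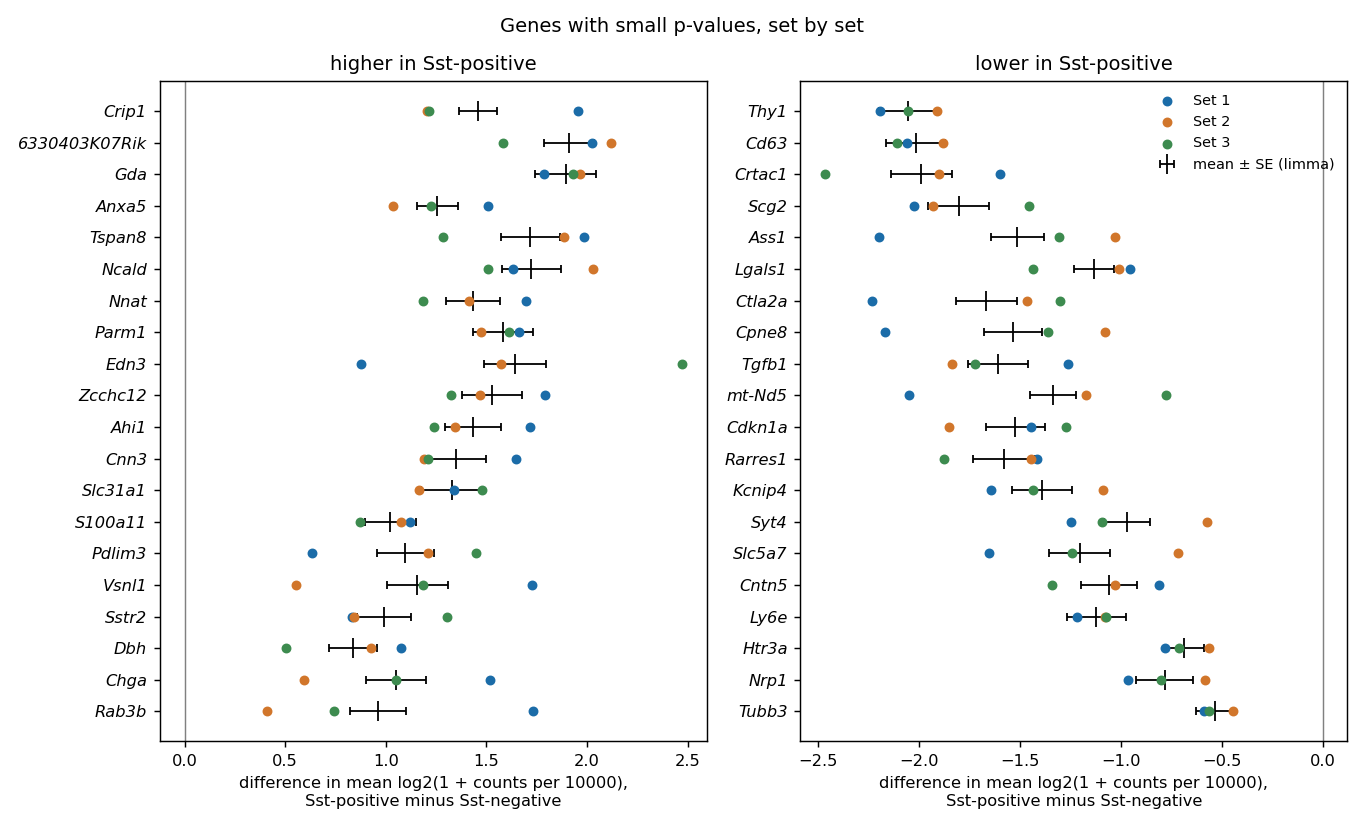
Difference in mean log2(1 + counts per 10000) between positive and negative cells in each set (coloured points) for 20 genes higher (left) and 20 lower (right) in positive cells; the black mark and bar are limma's estimate and its SE. For Edn3 the sets lie at 0.88, 1.57 and 2.47, while for Gda they lie between 1.79 and 1.96.

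Crip1, a small LIM-domain protein, stood at 41.9, 39.0 and 37.7 counts per 10000 in positive cells of Sets 1 to 3 and at 11.9, 17.6 and 17.9 in negative cells. The sets did not overlap. Single cells did: positive cells spanned 17.4 to 56.3 and negative cells 1.59 to 40.0. The log2 difference was 1.46 (SE 0.09, limma adjusted p = 3.0e-50), and on summed counts with voom weights Crip1 did not pass (adjusted p = 0.16 in limma). Gda, the guanine deaminase that breaks down guanine, was at 3.27, 3.70 and 3.26 in positive sets and at 0.300, 0.115 and 0.0668 in negative sets. Its count was above 0 in 18 of 18 positive and 6 of 34 negative cells, with a log2 difference of 1.89 (SE 0.15). In negative cells of Set 1, Gda was counted in a single cell, at 2.70, which is described below. Crip1 lies at chr12:113146316-113153879 on the plus strand and Gda at chr19:21391307-21473445 on the minus strand (GRCm38, GENCODE M21). Both intervals begin upstream of the RefSeq starts and cover the windows searched above.

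Thy1, a GPI-anchored surface protein of neurons, showed the opposite pattern. It was at 0.559, 0.913 and 0.856 in positive sets and at 6.11, 6.00 and 6.33 in negative sets, and fell by 2.05 on the log2 scale (SE 0.15). Scg2, secretogranin II of dense-core vesicles, was at 0.224, 0.280 and 0.292 against 4.18, 4.19 and 2.86, and fell by 1.80 (SE 0.15). Th was at 8.05, 5.49 and 5.37 in positive sets and at 26.1, 28.0 and 46.0 in negative sets. All 3 genes were lower in every positive set than in any negative set. Th fell by 2.45 (SE 0.23, limma adjusted p = 0.00026), a call lost with a pseudocount of 0.1 (adjusted p = 0.30 in limma). Thy1 lies at chr9:44043384-44048579 (plus strand), Scg2 at chr1:79434669-79440120 (minus) and Th at chr7:142892752-142931128 (minus).

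Among negative cells, 2 had values of Crip1, Th, Thy1 and Scg2 in the range of the positive cells, and were chosen after their values were seen. They came from Sets 1 and 3 and held 22243 and 32250 counts. Crip1 was 40.0 and 33.8 in them, Th 1.35 and 2.17, Thy1 0.45 and 0, Scg2 0.899 and 0, and the neuropeptide gene Cartpt 64.7 and 76.0. Gda was 2.70 and 0.620, the latter below the lowest positive cell (0.727). The tetraspanin gene Cd63 was 3.15 and 2.79, both above the highest positive cell (1.94). Sstr2 was 0 and 0.620 and Crtac1 was 0 in both, values also seen among positive cells. They stayed in the negative group. The positive cell with 1 Sst count had Crip1 at 36.8, Th at 1.29 and Thy1 at 0.

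**Figure D3:**
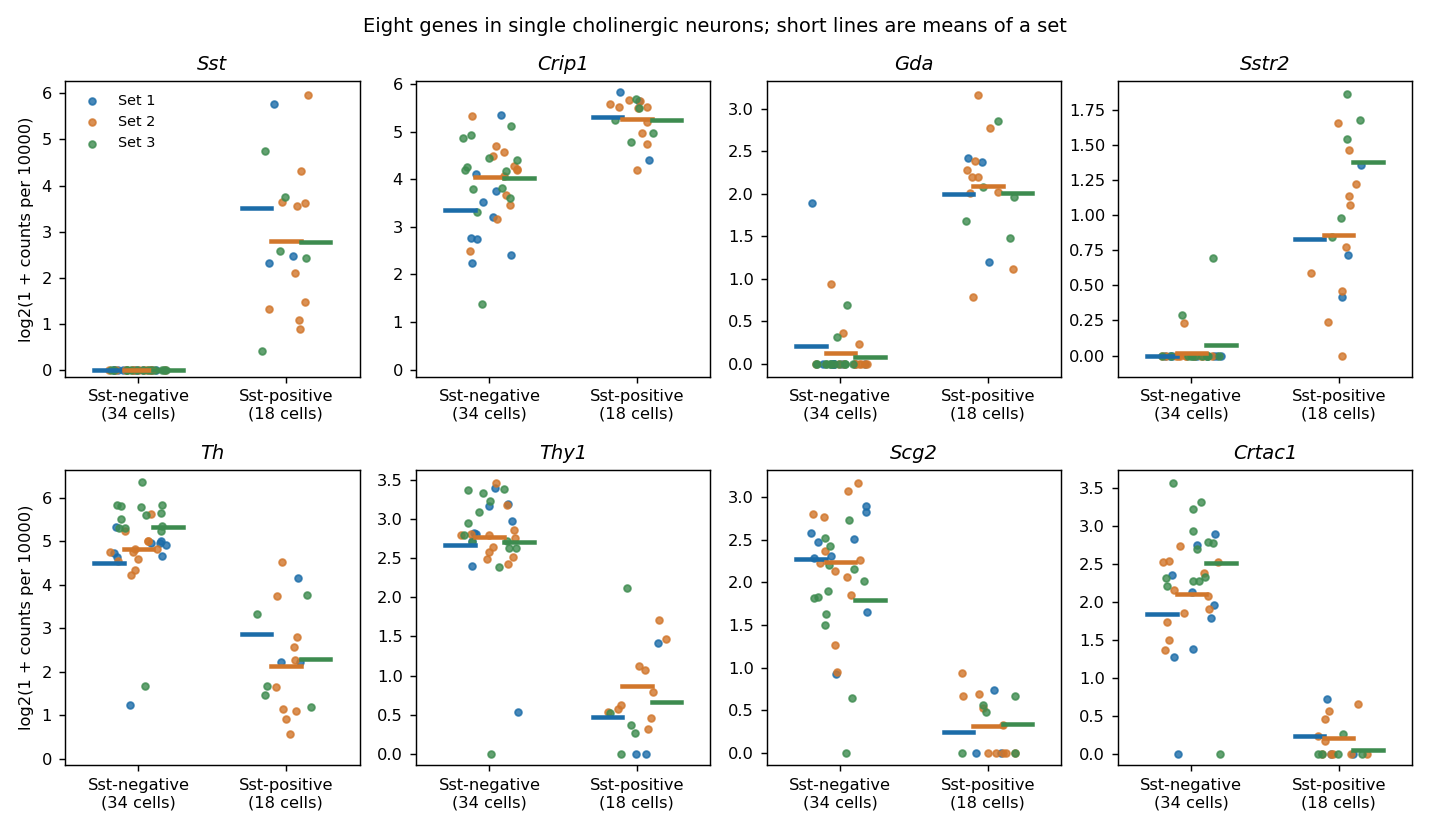
Single-cell values of 8 genes as log2(1 + counts per 10000) in the 34 negative and 18 positive cells, coloured by set, with short lines for the mean of each set. Gda was above 0 in every positive cell and in 6 negative cells, while Crtac1 was above 0 in 7 positive and 32 negative cells.

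Further genes that were higher in positive cells, those with the smallest p-values, came from many families. 6330403K07Rik was at 11.5, 11.0 and 13.0 in positive sets against 2.80, 1.83 and 4.15, a log2 difference of 1.91. Anxa5, a calcium-dependent phospholipid-binding annexin, was at 23.7, 16.6 and 23.7 against 8.37, 7.54 and 9.93 (1.26). Ncald, a neuronal calcium sensor, was at 4.55, 5.31 and 4.40 against 1.25, 0.509 and 1.37 (1.72). Positive and negative sets did not overlap for any of these 3 genes. Here and elsewhere, sets that do not overlap are only a description, since choosing genes by small p-values favours it. The share of all tested genes with such sets was not counted. The tetraspanin Tspan8 (1.72), the peptide gene Edn3 (endothelin 3, 1.64), Parm1 (1.58), Zcchc12 (1.53), the imprinted gene Nnat (neuronatin, 1.43), the ciliary gene Ahi1 (1.43) and the actin-binding calponin Cnn3 (1.35) completed the group. Edn3 was detected in 15 of 18 positive and 15 of 34 negative cells, with levels of 2.58, 3.36 and 6.25 against 0.598, 0.293 and 0.437. All of these genes passed under each of the 16 settings.

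Among the genes lower in positive cells, several were near 0 there. Cd63, a tetraspanin of lysosomes and exosomes, was at 0.646, 0.696 and 0.631 in positive sets against 5.22, 5.05 and 6.10 (log2 difference -2.02). The near-identical copy Cd63-ps, outside the rule for named genes, gave -1.53, and how reads were shared between both copies is uncertain. Crtac1, a secreted matrix protein, was at 0.215, 0.175 and 0.0397 against 3.12, 3.51 and 5.50 (-1.99). Tgfb1, transforming growth factor beta 1, was detected in 3 of 18 positive and 32 of 34 negative cells (-1.61). Every set of positive cells lay below every set of negative cells for these 4 genes.

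The same held for Ass1, an enzyme of arginine synthesis, at 0.778, 3.73 and 3.18 against 7.28, 8.95 and 9.53 (-1.51), although with a pseudocount of 0.1 limma's adjusted p was 0.37. The galectin Lgals1 (-1.13), Cpne8 (copine 8, -1.54), the cell-cycle inhibitor Cdkn1a (p21, -1.52) and Rarres1 (-1.58) also fell, and these 4 kept their calls under each of the 16 settings. Ctla2a was at 0, 0.982 and 1.11 against 4.59, 3.59 and 2.93 (-1.67), and with median-of-ratios scaling its adjusted p in limma was 0.44. For mt-Nd5, a mitochondrially encoded subunit of complex I, the sets overlapped: 3.82, 12.9 and 4.53 against 18.7, 30.3 and 8.71. It was lower in 3 of 3 sets (-1.33), and without the block limma's adjusted p was 0.60.

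Acetylcholine genes were present in both groups. Slc18a3, the vesicular acetylcholine transporter, was detected in 18 of 18 positive and 34 of 34 negative cells. Its levels were 3.72, 4.36 and 5.69 in positive sets and 4.64, 5.79 and 6.39 in negative sets. The sets overlapped and the difference of -0.31 did not pass (SE 0.13, limma adjusted p = 0.20), although with median-of-ratios scaling it did (adjusted p = 0.029 in limma). Chat was low, at 0, 0.437 and 0.533 against 0.568, 0.658 and 0.597, and did not pass (-0.27, SE 0.13). Slc5a7, the choline transporter, was at 0, 2.35 and 0.401 against 2.58, 3.83 and 2.36. It passed as lower in positive cells (-1.21, SE 0.15), with the highest positive set just below the lowest negative set. The call was lost with voom weights (limma adjusted p = 0.66) and without the block (limma adjusted p = 0.26).

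The only other members of the acetylcholine list to pass were those that hold acetylcholinesterase outside the cell. Colq, the collagen tail of the enzyme, was at 0.910, 1.18 and 2.10 in positive sets against 0.221, 0.104 and 0.328 (0.90, SE 0.14). Prima1, its membrane anchor, was at 1.32, 1.69 and 2.37 against 0.625, 0.305 and 0.550 (0.84, SE 0.15). The positive sets lay above the negative sets for both genes. Of 13 tested members, 2 were higher and 1 lower in positive cells, with a median of -0.10. Of 11 tested genes on the list of cholinergic sympathetic markers, 1 was higher (Tlx3) and 3 were lower (Slc5a7, Ass1 and Hmx1), with a median of -0.29. Without Set 3 the counts were 0 and 4. Tlx3 and Hmx1 are also on the list of sympathetic factors, so the tally does not measure how cholinergic the cells were. The neurturin receptor subunit Gfra2 (-0.07, SE 0.15), the receptor kinase Ret (-0.29, SE 0.14) and the intermediate filament gene Prph (-0.24, SE 0.09) did not pass. Prph did pass with median-of-ratios scaling, voom weights, a pseudocount of 0.1, clusters 1 and 2 in the fit, and without Set 1 (limma adjusted p = 0.026), and Ret without Set 3 (limma adjusted p = 0.046).

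Noradrenergic genes did not move together. Dbh was at 11.1, 10.3 and 8.13 in positive sets and at 5.16, 5.47 and 5.59 in negative sets, and rose by 0.84 (SE 0.12), the opposite direction to Th. Slc31a1, a copper transporter, was at 3.52, 3.36 and 3.65 against 0.798, 0.542 and 0.562 and rose by 1.33 (SE 0.15). Slc18a2, the vesicular monoamine transporter, was at 0.982, 0.853 and 0.712 against 0.229, 0.336 and 0.214. The sets of these genes did not overlap. Slc18a2 passed in limma (0.48, SE 0.13, adjusted p = 0.012), but after thinning it did not (0.33), nor without Set 2 (0.17) or Set 3 (0.20). Slc6a2, the noradrenaline transporter, was at 1.23, 2.93 and 1.11 against 1.51, 2.25 and 0.893 and did not pass (0.08, SE 0.15).

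Of the 17 noradrenergic genes tested, 6 were higher and 2 lower in positive cells, with a median of 0.18. After thinning 4 were higher and 1 lower, and without Set 2 the counts were 3 and 1. Dbh, Slc6a2 and Slc31a1 were lower in both groups than in clusters 1 and 2, which are given as a description since the clusters were built on such genes. Dbh averaged 22.0 in cluster 1 and 27.7 in cluster 2, Slc6a2 16.4 and 21.6, and Th 49.0 and 63.0. Against these, Th averaged 33.4 in negative cells and 6.30 in positive cells over the 3 sets.

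**Figure D4:**
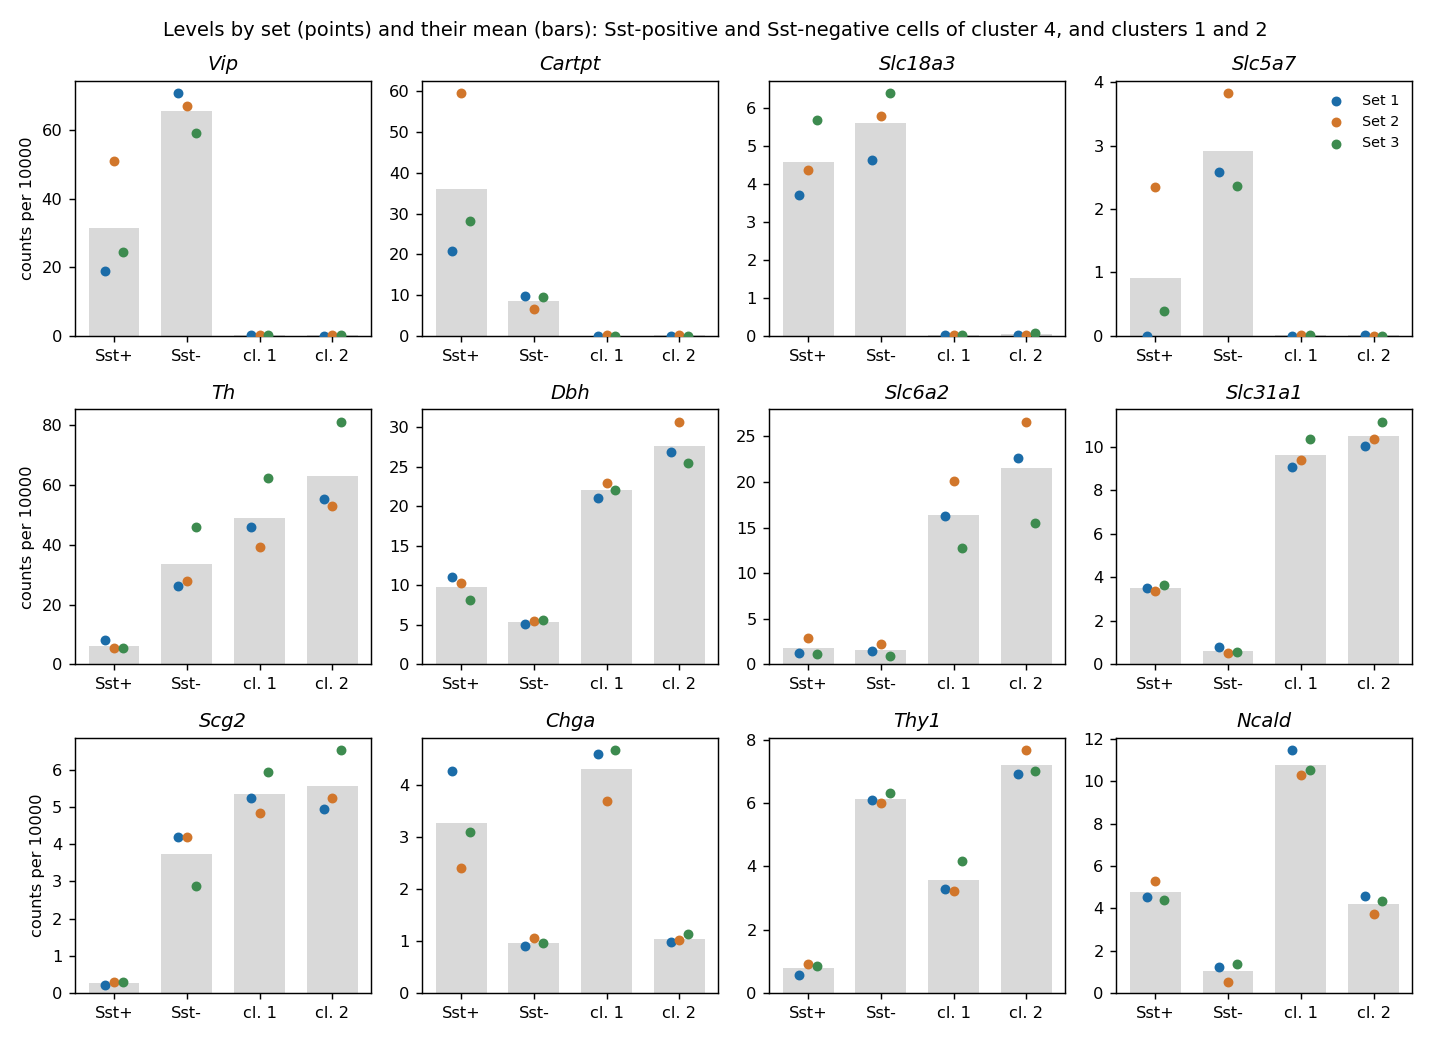
Levels in counts per 10000 of 12 genes in positive cells (Sst+), negative cells (Sst-), cluster 1 and cluster 2, with a point for each set and a bar from 0 for their mean. Vip and Slc18a3 were high in both cholinergic groups, Th was lowest in positive cells, and Slc31a1 and Ncald in positive cells lay above negative cells in every set.

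Vip and Cartpt did not pass the test, although their positive and negative sets did not overlap. Vip was at 19.1, 51.0 and 24.5 in positive sets and at 70.8, 67.0 and 59.3 in negative sets. The difference was -1.10 (SE 0.27, limma adjusted p = 0.21). Vip passed under 9 of the other settings, among them after thinning (limma adjusted p = 2.2e-08), with clusters 1 and 2 in the fit (limma adjusted p = 0.00082) and without Set 1, Set 2 or Set 3 (limma adjusted p = 9.1e-07, 6.5e-25 and 2.4e-06). Cartpt, a peptide precursor, was at 20.8, 59.6 and 28.1 in positive sets and at 9.83, 6.59 and 9.55 in negative sets. The median positive cell held 36.5 and the median negative cell 1.02, but single negative cells reached 76.0. The difference was 3.14 (SE 0.73, limma adjusted p = 0.36), and Cartpt passed under 6 of the other settings, among them after thinning (limma adjusted p = 0.00083) and without Set 1 or Set 2 (limma adjusted p = 7.7e-37 and 6.9e-41).

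Of 11 neuropeptide genes tested, 3 were higher (Edn3, Pdyn and Calca) and 1 lower in positive cells, with a median of 0.18, and without Set 3 1 was higher and 1 lower. Pdyn, the dynorphin precursor, was detected in 6 of 18 positive and 2 of 34 negative cells and was at 0, 1.05 and 1.98 against 0, 0 and 0.0692. Without Set 3 it did not pass (limma adjusted p = 0.14), nor without Set 2 (0.050). Calca, the precursor of calcitonin gene-related peptide, was at 0, 3.54 and 1.87 against 0.561, 0.586 and 0.0694. Its sets overlapped, and it lost its call under 13 of the 16 settings, among them without Set 2 (limma adjusted p = 0.64) and without Set 3 (0.75). Npy (0.18, SE 0.14) and Gal (0.15, SE 0.15), the peptides of noradrenergic neurons, did not pass.

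Dense-core vesicle genes split. Chga, chromogranin A, was at 4.27, 2.39 and 3.10 in positive sets and at 0.898, 1.04 and 0.955 in negative sets, and rose by 1.05 (SE 0.15) while Scg2 fell. Syt4, a synaptotagmin of such vesicles, was at 5.37, 7.92 and 5.23 against 12.3, 12.3 and 12.5 and fell by 0.97 (SE 0.11). The sets of both genes were apart. Of 23 tested genes of granins, vesicles and prohormone processing, 2 were higher and 3 lower, with a median of -0.01.

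Sstr2 was at 0.848, 0.931 and 1.70 in positive sets and at 0, 0.0146 and 0.0646 in negative sets. Its RNA was detected in 17 of 18 positive and 3 of 34 negative cells, against 10.3% of cluster 1 and 13.4% of cluster 2 cells. The log2 difference was 0.99 (SE 0.13, limma adjusted p = 2.8e-11) and passed under each of the 16 settings. Of 6 tested genes for somatostatin receptors and their G proteins and channels, 1 was higher and 1 lower. The lower one was Kcnj3, a subunit of the G-protein-gated potassium channel, at 0, 0.0852 and 0.0645 against 0.285, 0.374 and 0.261. Kcnj3 passed narrowly (limma adjusted p = 0.045) and not after thinning (0.35), nor without Set 1 (0.10), Set 2 (0.41) or Set 3 (0.23).

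Of 20 tested genes of cAMP and CREB signalling, 2 were higher and none lower, against 2.13% higher and 2.28% lower over all tested genes. Prkacb, a catalytic subunit of protein kinase A, was at 1.48, 2.37 and 1.45 against 0.726, 1.30 and 0.721. Adcy2, an adenylyl cyclase, was at 0, 0.323 and 0.365 against 0.0208, 0 and 0. After thinning 0 of the 20 passed, and the same count was found without Set 2 and without Set 3. Immediate early genes gave 1 call among 14, against 4.41% of all tested genes. It was Klf6 (-0.47), lost after thinning (limma adjusted p = 0.54) and without Set 2 (0.61) or Set 3 (0.39).

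Transcription factor genes differed in detection. Hmx1, a homeobox factor of sympathetic neurons, had 0 counts in 18 positive cells and was detected in 26 of 34 negative cells. The 0 allows up to 16.7% of cells with a count at these depths, and sets no limit on cells that express the gene. Set against the limit of 3 counts over the positive group, its level in negative cells was at least 7.03-fold higher. It did not pass after thinning (limma adjusted p = 0.063), without Set 2 (0.11) or without Set 3 (0.16). Isl1, a LIM homeodomain factor, was at 2.37, 1.92 and 4.35 in positive sets against 1.00, 1.41 and 1.54 (0.70, SE 0.15), and without Set 3 its adjusted p in limma was 0.26. Of 11 tested sympathetic factors, 2 were higher and 2 lower, but 1 and 0 after thinning or without Set 2, and none without Set 3.

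Shox2, a homeobox factor outside the rule for named genes and picked after its values were seen, was detected in 17 of 18 positive and 1 of 34 negative cells. It was at 0.663, 0.918 and 1.65 in positive sets and at 0, 0 and 0.0239 in negative sets (0.97, SE 0.13). Genes of the Hoxc cluster, which mark position along the body axis, were also higher: 3 of 5 tested Hox genes passed, with a median of 0.37. Hoxc8 was at 1.03, 1.14 and 1.19 against 0.180, 0.0430 and 0.330 and Hoxc9 at 0.224, 0.428 and 0.591 against 0.0999, 0.0146 and 0.0239. Both had sets that did not overlap, as had Hoxc6 (0.43). After thinning 0 of 5 passed, and 1 passed without Set 2 or without Set 3.

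Surface and cytoskeletal genes were mostly lower where they passed. Of 27 tested genes of GPI-anchored and adhesion proteins, 2 were higher and 6 lower in positive cells, with a median of -0.11. After thinning and without Set 3 the counts were 0 and 4, and without Set 2 they were 1 and 4. Besides Thy1, the contactin Cntn5 was detected in 1 of 18 positive and 31 of 34 negative cells (-1.06, SE 0.14). Ly6e was at 0.215, 0.348 and 0.184 against 1.92, 1.87 and 1.69 (-1.12, SE 0.15). Both calls held under each of the 16 settings. The neuronal cytoskeleton gave 1 higher and 6 lower of 27, with a median of -0.16. Tubb3, a neuronal tubulin, was at 14.5, 16.9 and 18.2 against 22.3, 22.9 and 27.4 (-0.53, SE 0.10), and without the block its adjusted p in limma was 0.19. Map1b (-0.37) and the dynein heavy chain Dync1h1 (-0.57) were also lower, but neither passed after thinning, which left 1 gene higher and 2 lower. Without Set 2 or without Set 3 the counts were 0 and 3, and without the block none passed. Map1b did not pass without Set 2 (limma adjusted p = 0.079), nor Dync1h1 without Set 3 (0.11).

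Of 21 axon guidance genes 3 were lower and none higher, against 2.28% lower and 2.13% higher over all tested genes. The neuropilin receptor Nrp1 was at 0, 0.353 and 0.192 in positive sets against 1.06, 1.03 and 1.18 (-0.78, SE 0.14). After thinning, without Set 2 or without Set 3, 1 of the 21 passed. The list of axon injury and growth genes had 2 higher and 3 lower of 16, but 1 and 1 after thinning, 0 and 1 without Set 2 or without Set 3, and none without the block. Gap43, a growth-cone protein, was higher by 0.36 (SE 0.10), and did not pass without Set 2 (limma adjusted p = 0.16) or Set 3 (limma adjusted p = 0.11). The 2 cells left out for Atf3, both from Set 2, had no Sst count. Keeping them gave 421 genes in place of 459.

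Potassium channel genes gave 2 higher and 3 lower of 27, with Kcnip4 (an accessory subunit) at 0, 0.287 and 0.0397 in positive sets against 2.62, 1.97 and 2.12 (-1.39, SE 0.15). Kcnq3, a subunit of the M-current channel, was at 1.23, 1.60 and 0.917 against 0.325, 0.443 and 0.393 (0.70, SE 0.15). After thinning Kcnq3 did not pass (limma adjusted p = 0.067), nor without Set 2 (0.071). The counts of the list were then 0 higher and 2 lower in both cases, and 1 and 2 without Set 3. None of 28 tested sodium, calcium and HCN channel genes passed in limma, and 3 had an unadjusted p under 0.05. None of 19 growth factor receptor genes passed, with 3 at an unadjusted p under 0.05 and 1 higher with median-of-ratios scaling or voom weights. Without Set 1 the list gave 1 higher and 1 lower, without Set 3 1 lower, and with clusters 1 and 2 in the fit 2 higher, as did the sodium, calcium and HCN channels in that fit. Over all 10415 tested genes that fit passed 1126, against 459 in the main test.

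The subunits of the ionotropic serotonin receptor moved apart. Htr3a was at 10.9, 15.0 and 19.1 in positive sets against 19.2, 19.7 and 30.3 (-0.69, SE 0.10), with positive sets below negative sets by a narrow margin. Without the block its adjusted p in limma was 0.11. Htr3b was at 2.88, 3.02 and 4.15 against 1.45, 1.38 and 2.33 (0.67, SE 0.15), a call held under each of the 16 settings. Ednra, a receptor for endothelins, was higher by 0.46 (SE 0.12), but not after thinning (limma adjusted p = 0.055) or without Set 2 (0.37). Of 21 tested receptor genes 3 were higher and 1 lower, and 1 and 1 after thinning or without Set 2.

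Of 34 synaptic vesicle and release genes, 3 were higher and 7 lower in positive cells, with a median of -0.07, but 1 and 4 without the block. Rab3b, a vesicle GTPase, was at 9.69, 5.17 and 3.26 against 2.29, 3.11 and 1.44 (0.96, SE 0.14), and its sets were apart. Without the block its adjusted p in limma was 0.35, and with voom weights 0.053. Syt4, given above, was among the 7 lower genes.

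Calcium sensors and binding proteins had more genes higher than any other of the 31 lists: 10 of 23 tested were higher and none lower, with a median of 0.07. Besides Ncald, Vsnl1 (a visinin-like sensor) was at 3.46, 1.60 and 2.49 against 0.429, 0.763 and 0.569 (1.16, SE 0.15). S100a11 was at 9.72, 10.2 and 5.55 against 4.90, 4.52 and 2.77 (1.02, SE 0.13). After thinning 7 were higher, and 6 were higher without Set 2, where 1 was lower, and without Set 3. With median-of-ratios scaling 7 were higher and 2 lower. S100b, also a glial marker, was at 0.431, 0.747 and 0.257 against 0.716, 1.02 and 1.13 and did not pass (-0.43, SE 0.14, limma adjusted p = 0.055). It did under 8 other settings, among them without Set 1 (limma adjusted p = 0.017).

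Of 18 tested LIM-domain genes, 4 were higher and 1 lower. Besides Crip1, Pdlim3 was at 0.766, 1.93 and 2.31 against 0.0999, 0.152 and 0.0536 (1.10, SE 0.14), and the LIM-only factor gene Lmo4 was at 0, 0.298 and 0.439 against 1.26, 1.18 and 0.695 (-0.69, SE 0.14). Positive and negative sets were apart for both. Gda was the 1 gene higher among 16 tested genes of purine salvage and breakdown. The 1 lower gene there, the nucleotidase Nt5c (-0.48), did not pass after thinning (limma adjusted p = 0.37) or without Set 2 (0.38) or Set 3 (0.25).

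Respiratory chain genes were lower where they passed. Of 64 nuclear genes of oxidative phosphorylation, 8 were lower and none higher, with a median of -0.17. Atp5b, a subunit of ATP synthase, was at 9.48, 12.2 and 11.0 against 15.0, 17.1 and 15.1 (-0.50, SE 0.10), and without the block its adjusted p in limma was 0.23. After thinning 2 of the 64 were lower, without Set 2 also 2, without Set 3 1 and without the block none, against 12 without Set 1, 19 with median-of-ratios scaling, 13 with voom weights and 21 with clusters 1 and 2 in the fit. Mitochondrially encoded genes, a list made after the values were seen, gave 10 lower of 18 tested, with a median of -0.40. Their summed level was 133, 270 and 142 in positive sets and 279, 390 and 165 in negative sets, lower in each set but with overlapping ranges. None of 74 tested cytosolic ribosomal protein genes passed in limma, where the list median was 0.02 and 9 genes had an unadjusted p under 0.05. There was 1 lower with median-of-ratios scaling, 1 higher without Set 2, 1 lower without Set 3, and 4 higher and 1 lower with clusters 1 and 2 in the fit. That fit, used for the oxidative phosphorylation genes too, passed 1126 of all 10415 tested genes, against 459 in the main test.

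**Figure D5:**
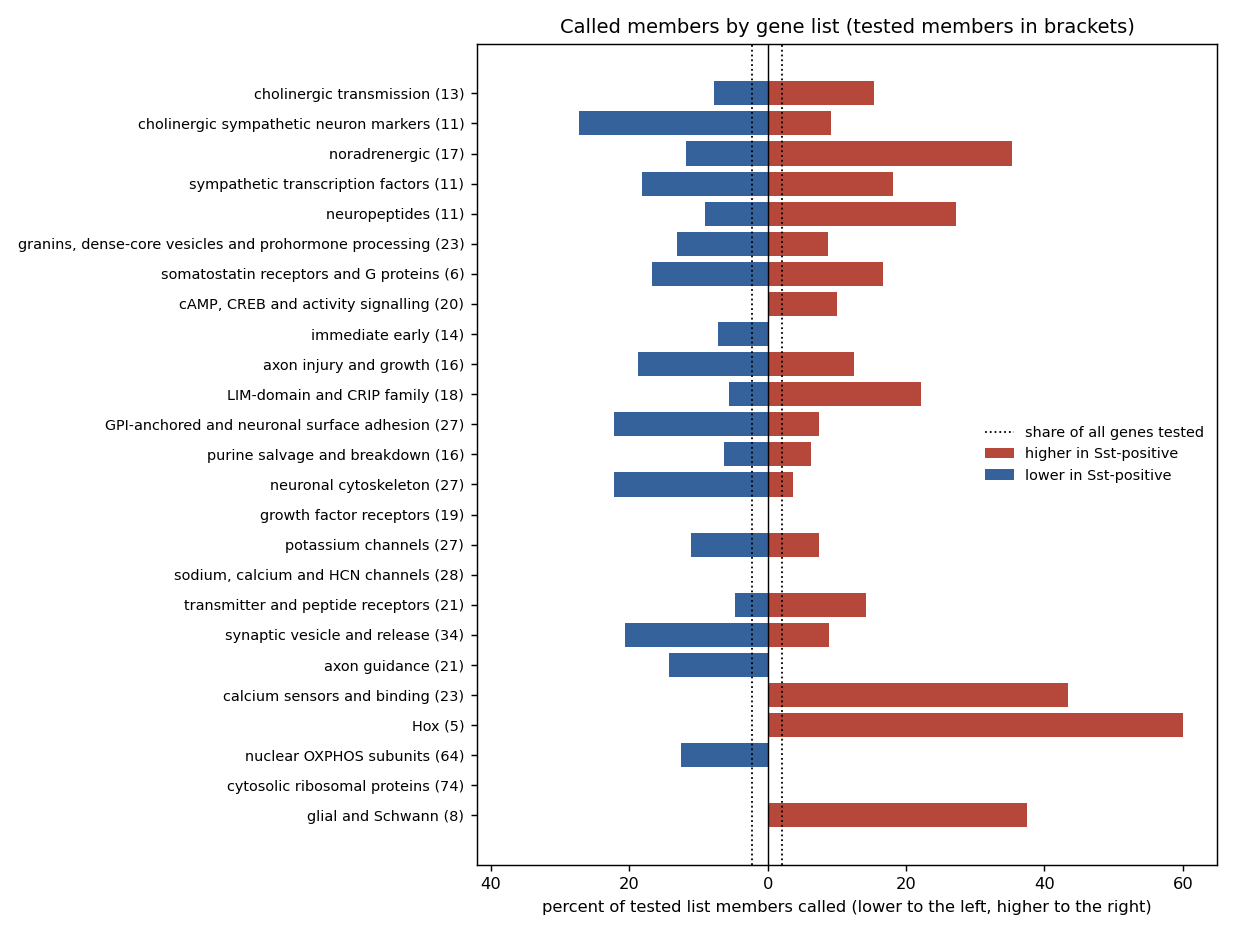
Percent of the tested members of each gene list that passed the test, higher in positive cells to the right and lower to the left, for lists with at least 5 tested members and with the number tested in brackets; dotted lines mark the shares of all tested genes, 2.13% and 2.28%. Calcium sensors (10 of 23) and Hox genes (3 of 5) extend farthest to the right among the lists plotted.

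Genes of other cell types were checked beside these results. Of 8 tested glial and Schwann genes, 3 were higher in positive cells and none lower, with a median of 0.30. The differences of 6 were positive and those of 2 negative, among them S100b (-0.43, given above), whose level was lower in each positive set than in the negative set beside it. Without Set 1 the counts were 3 higher and 1 lower, and without the 10% of cells richest in glial counts 1 and 1. Apoe was at 17.3, 12.2 and 32.9 against 7.00, 10.3 and 20.2, and Pmp22 at 11.4, 14.3 and 14.1 against 8.57, 7.93 and 11.6. The summed glial level averaged 32.8, 32.9 and 57.8 in positive sets and 18.1, 23.4 and 38.6 in negative sets, higher in each set. Single positive cells spanned 12.9 to 125 and negative cells 6.86 to 112, and of 12 glial markers only Gfap had no count in either group. The part of glial RNA in the results was not tested beyond leaving out cells. Without the 10% of cells richest in glial counts, 382 genes passed in place of 459. Apoe then did not pass (limma adjusted p = 0.30). Pmp22 did not pass without Set 2 (limma adjusted p = 0.39), nor Apoe without Set 3 (0.073), and the count of glial genes higher was 1 without either of these sets.

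The endothelial and lymphoid surface gene Ly6c1 had 0 counts in the 18 positive cells and was detected in 21 of 34 negative cells. As for Hmx1, the 0 limits only cells with a count. Its level in negative cells was at least 7.19-fold higher than 3 counts over the positive group. It was 1 of 2 tested endothelial genes, and it did not pass without Set 2 (limma adjusted p = 0.15) or Set 3 (limma adjusted p = 0.089). Cdh5, Cldn5, Kdr and Flt1, which define endothelium, had no count in either group. No mural or macrophage gene reached the minimum level, and the 1 fibroblast gene tested did not pass. Of 3 sensory neuron genes 1 was higher (Calca) and 1 lower (Avil, -0.59), and of 4 chromaffin cell genes 2 were higher (Chga and Slc18a1, 0.28) and 1 lower (Scg2). Avil and Slc18a1 did not pass after thinning (limma adjusted p = 0.093 and 0.21), without Set 2 (limma adjusted p = 0.13 and 0.46) or without Set 3 (limma adjusted p = 0.13 and 0.23).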

How the data were processed

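Cells were sorted singly into 96-well plates, and libraries of pooled cDNA were read from the 3' end, per the labels' protocols. Per the submitters' processing notes, STAR 2.5.3a, featureCounts 1.5.3, SAMtools 1.4.1, Seurat and GRCm38 were used. The deposited values are the natural log of 1 plus counts per 10000, as the values themselves show: 100% of non-zero values gave counts within 0.001 of a whole number. The sources used here do not say whether these are reads or molecules. The deposited cluster number of each cell is a label, not a score, and its settings were not stated. The sort record was not used, because it does not map wells to cells of the table.

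Values were turned into log2(1 + counts per 10000) and averaged over the cells of a set and group. Genes with a mean under 0.05 counts per 10000, and Sst, were left out. The test was limma 3.58.1 (trend and robust, two-sided) in R 4.3.3 with the set as a block. It was first tried on cells of cluster 1, split at the same group sizes, with the counts of chosen genes thinned. The outcome of that trial is not reported here. Sets share their mice between groups, and deviations from the group means correlated within sets at 0.183, 0.348 and 0.405 and between sets at -0.308 to 0.00779. The deviations of a gene sum to 0 over the sets of a group. Values between sets are thus tied to those within sets and are not separate evidence for the block. Members, 31 gene lists and alternatives were chosen with earlier results of these data known, so no list or marker is independent evidence. Named genes were the marker and class genes, the 12 with the smallest p in each direction, and up to 3 per list; 2 of these genes are not reported here. Alternatives changed the scaling, weights, depth, pseudocount, filter, block, sets, Sst threshold, Atf3 filter, glial cells, samples in the fit and limma's options. The plates of a set were treated as technical, no doublet caller was run, and no set test was made. Promoters came from RefSeq (GRCm38.p6) and positions from GENCODE M21 by symbol. Tables were made with Python 3.11.15 (pandas 2.3.3, numpy 2.4.6, scipy 1.17.1) and plots with matplotlib 3.10.9.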

Additional observations from a re-analysis of the deposited data

How the results depend on the processing

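The count of 459 genes depended on the processing. It was 237 after thinning to 15000 counts (1 cell was too shallow), 282 with no filter on low values, 195 with no replicate block, 1126 with clusters 1 and 2 in the fit and 0 with the spread of each gene alone (limma, smallest adjusted p 0.0853). Leaving out each set gave 207 (without Set 2) to 446 (without Set 1), and 221 without Set 3. The spread of each gene alone and a split at the highest Sst value outside cluster 4 (402 genes), were chosen after the data were seen. With median-of-ratios scaling 552 genes passed, 210 higher and 342 lower (38.0% higher against 48.4%), and with voom weights 630, 389 higher and 241 lower (61.7%). Voom moved the median of all genes to 0.13. None of the 459 genes changed direction in the settings with a shared spread. Changing the filter, the block or the robust option, or adding clusters 1 and 2, leaves the estimate itself unchanged. Direction could not turn there, and the other settings reuse the same sets. Of the genes that did not pass, these turned direction: Gfra2 with the Atf3-high cells kept (0.0043) and Calcb with voom weights (0.42). Leaving out 1 set at a time, Slc6a2 ranged from -0.0062 (without Set 2) to 0.19, Npy from -0.10 (without Set 1) to 0.46, Ret from -0.64 to 0.040 (without Set 1) and Calcb from -0.53 to 0.37 (without Set 1). Over the genes with values in the text, 1233 comparisons with an alternative kept direction and call, 250 lost the call, 30 gained it and 6 turned. These comparisons include the settings that leave the estimate unchanged. The 3 shares of positive cells and the depths moved by less than their intervals or spread. Without the replicate block, which rests on the shared mice, 29 of the genes in the text lost their call and 2 gained one. Depth limits the split itself: 3 counts of Sst in the shallowest negative cell are 2.77 per 10000. Fewer cells in a set, 3 in Set 1, also limit its means.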
